A study of Mus musculus with 11 samples.

Results

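Transcripts of 7 interferon regulatory factors, Irf1, Irf2, Irf3, Irf4, Irf5, Irf7 and Irf8, were followed through bulk RNA-seq libraries of mouse acute myeloid leukaemia (AML). The genes were taken by symbol through their Ensembl identifiers, and all 7 were found among the 55487 genes of the count table. Irf9 was left out of the set by that choice. There were 5 libraries labelled Ifnar1 -/- and 6 labelled Ifnar1 +/-, and no Ifnar1 +/+ library was among them. All 11 carried Flt3-ITD, an internal tandem duplication that activates the cytokine receptor gene Flt3, and NHD13, the NUP98-HOXD13 fusion transgene. The Ifnar1 product is part of the cell-surface receptor through which type I interferons act. The labels call the samples AML and the design text calls them HPCs. The sources used here do not give age, sex, the promoter of the transgene or whether libraries of a genotype came from separate mice. The p-values therefore measure the spread between these samples, which may be technical.

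Interferon regulatory factors (IRFs) are transcription factors that share a DNA-binding domain for GAAA-containing sites. IRF3, IRF5 and IRF7 lie dormant in the cytoplasm until kinases downstream of nucleic acid sensors and Toll-like receptors phosphorylate them, and they then switch on type I interferon genes and inflammatory genes. Irf7 is itself induced by interferon, which makes it an amplifier of the response. IRF1 is an activator induced by interferons, and IRF2 binds the same sites and is known as its antagonist. IRF4 and IRF8 act mostly in blood cells, where they bind composite sites together with the ETS factors PU.1 and Spi-B. In mice both support the step at which precursor B cells stop dividing and rearrange light-chain genes, and IRF8 also directs monocyte and dendritic cell development.

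Stretches of 3 promoters are shown because they hold the interferon-type motifs found in the set. The sequences are from RefSeq (GRCm38.p6), in windows that run from 250 bases before to 50 bases after a gene start, and 9 such windows matched the 7 genes. Capitals mark the GAS element, a STAT-binding palindrome searched as TTCNNNGAA, and, in Irf2, also the core of the interferon-stimulated response element (ISRE), searched as GAAA-NN-GAAA (N for any base). Each stretch lies upstream of the start.

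Irf1, chr11:53769884-53769972, plus strand: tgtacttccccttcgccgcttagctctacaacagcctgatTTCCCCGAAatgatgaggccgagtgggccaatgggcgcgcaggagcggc
Irf2, chr8:46739495-46739569, plus strand: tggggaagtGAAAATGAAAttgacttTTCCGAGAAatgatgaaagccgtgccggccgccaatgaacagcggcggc
Irf8, chr8:120736147-120736253, plus strand: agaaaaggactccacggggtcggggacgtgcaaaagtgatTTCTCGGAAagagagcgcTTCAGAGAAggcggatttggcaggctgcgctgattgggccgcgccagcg

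Positions count from the gene start and are negative upstream. The Irf1 window held 1 GAS match, at -90, and the Irf8 window held 2, at -171 and -153. In Irf2 the ISRE core began at -241 and the GAS match at -224, and the ISRE core overlapped a match to the ETS-IRF composite, GGAA-NN-GAAA. The windows of Irf3, Irf4, Irf5 and Irf7 and the second windows of Irf1 and Irf8 held none of these motifs. No window held the EBF core, TCCC-NN-GGGA, the palindrome that EBF1 binds. Both strands were searched. Among all 32851 windows of that table, 8.3% held the GAS letters, 3.44% the ISRE core, 2.72% the ETS-IRF composite and 0.904% the EBF core. These matches describe letters in a window and were not tested as binding sites.

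The libraries held 25583642 to 38728143 estimated counts each. In a library 13265 to 14730 genes reached 10 counts. Levels below are CPM, counts divided by library totals that were scaled with TMM factors (trimmed mean of M-values). The factor of Ifnar1 -/- library 2 was 0.6815, and the others ran from 0.8892 to 1.132. For Ifnar1 itself the Ifnar1 -/- libraries ranged over 36.2 to 133 CPM and the Ifnar1 +/- libraries over 39.2 to 84.4 CPM, so a count over the whole gene did not check the labels. Markers of stem and progenitor cells summed to 671 to 2111 CPM, and all 8 of that list were counted well enough to test. Adgrg1 and Ptprc averaged 672 and 278 CPM in Ifnar1 -/- and 610 and 181 CPM in Ifnar1 +/- libraries. Over all libraries Mecom spanned 0 to 112, Meis1 1.01 to 172, Hoxa9 2.32 to 94.8, Cd34 5.93 to 380 and Kit 6.75 to 598 CPM. The sum therefore did not check the progenitor label of each library. The libraries also differed in lineage transcripts. Ebf1, the transcription factor gene that commits cells to the B lineage, had 529.7 to 744 CPM in 5 libraries, namely Ifnar1 -/- libraries 3 and 5 and Ifnar1 +/- libraries 3, 4 and 5. It had 0.0308 to 8.706 CPM in the other 6, Ifnar1 -/- libraries 1, 2 and 4 and Ifnar1 +/- libraries 1, 2 and 6. These sets are called high-Ebf1 and low-Ebf1 libraries, and since they were split on a measured value, differences between them are described without a test. A pair of low-Ebf1 libraries stood further apart. Ifnar1 -/- library 2 had 64689 CPM of 8 eosinophil markers, 38029 CPM of 8 neutrophil markers and 3703 CPM of 8 monocyte and macrophage markers, against at most 1816, 6566 and 295 CPM elsewhere. Ifnar1 +/- library 6 had 86806 CPM of 6 erythroid markers, against at most 8912 CPM elsewhere.

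Among the 7 genes, Irf8 and Irf4 were higher in every high-Ebf1 library than in any low-Ebf1 library. Irf5 was too, but for 1 low-Ebf1 library. Irf1, Irf2, Irf3 and Irf7 had ranges that overlapped between the Ebf1 sets. The ranges of 2 of the 7 genes did not overlap, with the high-Ebf1 libraries above. Of all 14521 genes tested, 12.1% lay wholly higher and 9.0% wholly lower in the high-Ebf1 libraries, so a pattern of this kind was common in these data. Early B-cell markers moved with the split, as all 7 of the list other than Ebf1 lay wholly higher in high-Ebf1 libraries, and those 7 summed to 5070 to 8297 CPM in high-Ebf1 and 10.2 to 112 CPM in low-Ebf1 libraries. In bulk RNA, fewer cells of a type cannot be told apart from less RNA per cell.

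**Figure D1:**
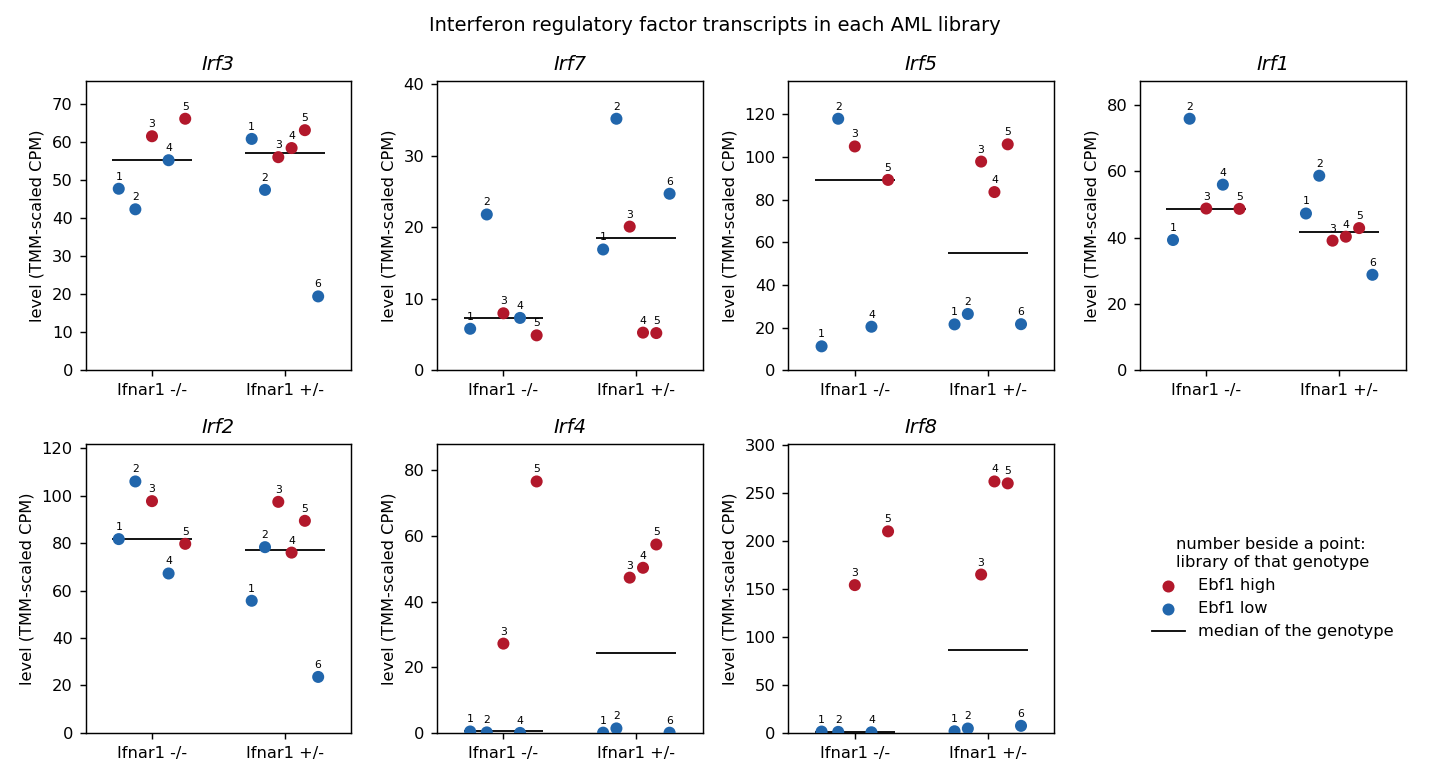
TMM-scaled CPM of each interferon regulatory factor (vertical axis, linear, from 0) in each library, with Ifnar1 -/- left of Ifnar1 +/-. Each point is 1 library, numbered within its genotype and coloured by Ebf1 level, and lines are genotype medians. Irf4 and Irf8 split by colour at 27.2 and 154 CPM, while genotypes overlap in every panel.

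Irf8 (ENSMUSG00000041515, chr8:120736358-120756694 in GRCm38, plus strand) spanned a 396-fold range. In Ifnar1 -/- libraries 1 to 5 it had 1.39, 1.08, 154, 0.662 and 210 CPM. In Ifnar1 +/- libraries 1 to 6 it had 1.73, 4.57, 165, 262, 260 and 7.36 CPM. The 5 high-Ebf1 libraries were the 5 highest for Irf8, whatever their genotype. The lowest of them was 21-fold above the highest low-Ebf1 library, and the medians were 210 CPM in high-Ebf1 and 1.56 CPM in low-Ebf1 libraries. Irf8 is also a gene of monocytes and dendritic cells, and Ifnar1 -/- library 2, with the most monocyte marker transcript, had 21 counts of Irf8 (1.08 CPM). That library also had 64689 CPM of eosinophil and 38029 CPM of neutrophil markers. The part of any such cells in its Irf8 level was not tested. The plasmacytoid dendritic cell markers Siglech and Klk1 were at 0 in all 11 libraries. That list summed to 186 to 613 CPM in high-Ebf1 and 157 to 352 CPM in low-Ebf1 libraries. Tcf4 had 160 to 248 CPM in high-Ebf1 and 147 to 338 CPM in low-Ebf1 libraries, and Ly6d 3.01 to 450 and 0 to 3.77 CPM. In the same order Runx2 had 0.434 to 12.1 and 5.58 to 40.2 CPM, and Pacsin1 0.0363 to 0.798 and 0.0402 to 6.37 CPM. Ccr9, which was not tested, had 0.0363 to 2.55 and 0 to 0.11 CPM. Of the 5 tested, Cox6a2 lay wholly higher in high-Ebf1 libraries (0.575 to 17.8 against 0 to 0.5 CPM) and 0 wholly lower. Of all genes, 12.1% and 9.0% did so. Ly6d, Runx2, Pacsin1, Ccr9 and Cox6a2 were named after their values were seen. The conventional dendritic cell markers Xcr1, Clec9a and Cd209a were under 1 CPM in all libraries, and that list summed to 79.3 to 123 CPM in high-Ebf1 and 130 to 234 CPM in low-Ebf1 libraries, mostly Flt3.

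Irf4 (ENSMUSG00000021356, chr13:30749226-30766976, plus strand), which is also needed for plasma cells, was close to absent outside the high-Ebf1 libraries. Ifnar1 -/- libraries 1 to 5 had 0.432, 0.155, 27.2, 0 and 76.6 CPM, from 14, 3, 760, 0 and 2399 counts. Ifnar1 +/- libraries 1 to 6 had 0.0804, 1.37, 47.3, 50.3, 57.4 and 0.0648 CPM, from 2, 41, 1315, 1385, 2384 and 2 counts. A count of 0 in Ifnar1 -/- library 4 allows up to 0.11 CPM (3 counts, counting error only). The highest low-Ebf1 library, Ifnar1 +/- library 2, was also the low-Ebf1 library with the most Ebf1 (8.706 CPM), and the lowest high-Ebf1 library lay 19.9-fold above it. Plasma cell markers, a list of 4, overlapped between the sets and summed to 105 to 246 CPM in high-Ebf1 and 120 to 308 CPM in low-Ebf1 libraries. Xbp1 had 55.6 to 182 CPM in high-Ebf1 and 113 to 296 CPM in low-Ebf1 libraries, so it weighs heavily in these sums. In the same order Sdc1 had 1.29 to 53.1 and 0.206 to 1.65 CPM, and Jchain 0.216 to 34.3 and 0.154 to 11.2 CPM. Prdm1 had 0.18 to 1.86 and 0 to 1.07 CPM.

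Irf5 (ENSMUSG00000029771, chr6:29526625-29541871, plus strand), which acts downstream of MyD88 in B cells and myeloid cells, was high in the high-Ebf1 libraries and in 1 more. In Ifnar1 -/- libraries 1 to 5 it had 11.2, 118, 105, 20.4 and 89.3 CPM. In Ifnar1 +/- libraries 1 to 6 it had 21.5, 26.4, 97.9, 83.6, 106 and 21.6 CPM. The high-Ebf1 libraries were alike, from 83.6 to 106 CPM, and the low-Ebf1 libraries had 11.2 to 26.4 CPM except Ifnar1 -/- library 2, which had the highest value on this scale. Without TMM factors it had 80.7 CPM, below the 90.0 to 114 CPM of the high-Ebf1 libraries. Without that library, a comparison chosen after seeing the data, the ranges of 3 of the 7 genes did not overlap, Irf5 among them, against 14.1% of all genes wholly higher. Ifnar1 -/- library 2 is the library with 3703 CPM of monocyte and macrophage markers. Of these, Ly6c2, Itgam, Adgre1 and Csf1r reached 1721, 929, 761 and 274 CPM. The rest of that list of 8 averaged less in Ifnar1 -/- than in Ifnar1 +/- libraries. Ccr2, F13a1, Ms4a6c and Fn1 averaged 11.8, 3.26, 0.593 and 2.62 CPM in Ifnar1 -/- libraries. In Ifnar1 +/- libraries they averaged 22.4, 19.1, 3.82 and 9.56 CPM. These marker genes were named after their values were seen. The part of any such cells in the Irf5 level of that library was not tested. Exons of Irf5 share 411 of 2905 bases with Tnpo3 on the other strand, which had 80.2 to 145 CPM, and since the strand setting of the counts is not given, reads there cannot be told apart.

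**Figure D2:**
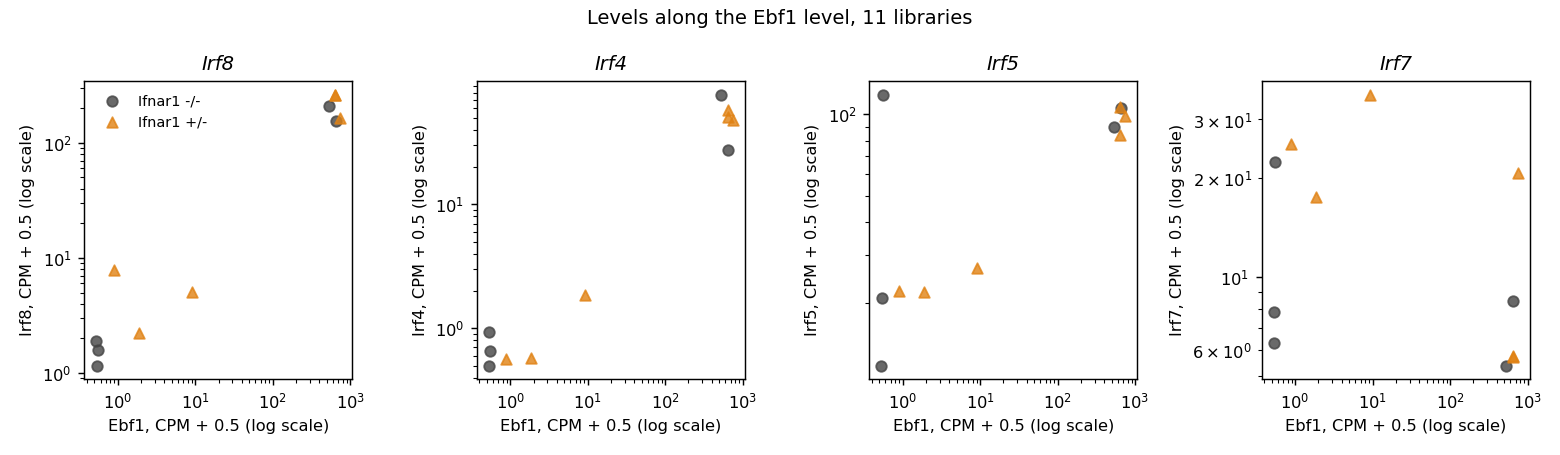
Level of Irf8, Irf4, Irf5 and Irf7 (vertical axes, CPM plus 0.5, log scale) against that of Ebf1 (horizontal axes, CPM plus 0.5, log scale), 1 point a library, circles Ifnar1 -/- and triangles Ifnar1 +/-. Irf8 and Irf4 form 2 separate clouds, Irf5 has 1 low-Ebf1 library at 118 CPM, and Irf7 has its highest values among low-Ebf1 libraries, up to 35.2 CPM.

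Irf7 (ENSMUSG00000025498, chr7:141262706-141266481, minus strand) had 4.88 to 35.2 CPM over all libraries. Ifnar1 -/- libraries 1 to 5 had 5.80, 21.8, 7.97, 7.32 and 4.88 CPM. Ifnar1 +/- libraries 1 to 6 had 16.9, 35.2, 20.1, 5.26, 5.20 and 24.7 CPM. The high values were those of Ifnar1 -/- library 2 and Ifnar1 +/- libraries 1, 2, 3 and 6, and the genotypes overlapped. By Ebf1 level the medians were 5.26 CPM in high-Ebf1 and 19.4 CPM in low-Ebf1 libraries, a ratio of 0.272. The ranges overlapped, as Ifnar1 +/- library 3, a high-Ebf1 library, had 20.1 CPM and Ifnar1 -/- libraries 1 and 4, low-Ebf1 libraries, had 5.80 and 7.32 CPM. Irf7 shares 45 of 3776 exon bases with Phrf1 on the other strand, which had 54.7 to 93.3 CPM.

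Irf3 (ENSMUSG00000003184, chr7:44997648-45002848, plus strand), the factor that is present before any signal, was steady in most libraries. In Ifnar1 -/- libraries 1 to 5 it had 47.7, 42.3, 61.5, 55.2 and 66.1 CPM. Across the 6 Ifnar1 +/- libraries the lowest was 19.4, the median 57.2 and the highest 63.1 CPM. The lowest came from Ifnar1 +/- library 6, the library rich in erythroid transcripts, and the other 5 of that genotype had at least 47.4 CPM. High-Ebf1 libraries spanned 56.0 to 66.1 CPM, a 1.18-fold range, and low-Ebf1 libraries 19.4 to 60.8 CPM. On CPM without TMM factors the ranges of Irf3 did not overlap, at 60.6 to 73.3 CPM in high-Ebf1 and 17.2 to 58.3 CPM in low-Ebf1 libraries. In that scaling 4 of the 7 genes, Irf3, Irf4, Irf5 and Irf8, lay wholly higher in high-Ebf1 libraries, against 15.3% of all genes. Irf3 shares 88 of 3442 exon bases with Bcl2l12 on the other strand, which had 18.2 to 85.1 CPM.

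Irf1 (ENSMUSG00000018899, chr11:53770014-53778374, plus strand) spanned a 2.63-fold range over all libraries. It had 39.3, 75.9, 48.8, 56.0 and 48.7 CPM in Ifnar1 -/- libraries 1 to 5. The 6 Ifnar1 +/- libraries had a lowest value of 28.8, a median of 41.6 and a highest value of 58.7 CPM. The highest value was that of Ifnar1 -/- library 2 and the lowest that of Ifnar1 +/- library 6, and the genotypes overlapped. The first place depends on the scaling, since without TMM factors Ifnar1 -/- library 2 had 51.7 CPM, below Ifnar1 -/- libraries 4 and 5 (59.2 and 54.1 CPM) and Ifnar1 +/- library 2 (60.4 CPM). High-Ebf1 libraries lay within 39.1 to 48.8 CPM and low-Ebf1 libraries spread over 28.8 to 75.9 CPM. Irf1 shares 135 of 3976 exon bases with Gm17334 on the other strand, which had at most 4.53 CPM.

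Irf2 (ENSMUSG00000031627, chr8:46739732-46847458, plus strand), the counterpart of Irf1, spanned a 4.52-fold range over all libraries. Ifnar1 -/- libraries 1 to 5 had 81.7, 106, 97.7, 67.2 and 79.7 CPM. In the 6 Ifnar1 +/- libraries the lowest was 23.6, the median 77.1 and the highest 97.4 CPM. The lowest was once more Ifnar1 +/- library 6. High-Ebf1 libraries had 76.0 to 97.7 CPM and low-Ebf1 libraries 23.6 to 106 CPM.

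Compared per length, the rank order of the 7 genes differed between the Ebf1 sets. Levels were divided by the exon length of each gene in GENCODE M21, as CPM per kb. In high-Ebf1 libraries the medians were 33.7 for Irf5, 29.7 for Irf8, 17.9 for Irf3, 12.1 for Irf2, 10.8 for Irf1, 10.3 for Irf4 and 1.39 for Irf7. In that order Irf5 and Irf8, Irf2 and Irf1, and Irf1 and Irf4 overlapped, and the other neighbours did not. In low-Ebf1 libraries the medians were 13.8 for Irf3, 13 for Irf1, 9.83 for Irf2, 7.42 for Irf5, 5.13 for Irf7, 0.221 for Irf8 and 0.024 for Irf4. Irf7 and Irf8 were the only neighbours there that did not overlap. Irf8 thus stood second of the 7 in high-Ebf1 and sixth in low-Ebf1 libraries.

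**Figure D3:**
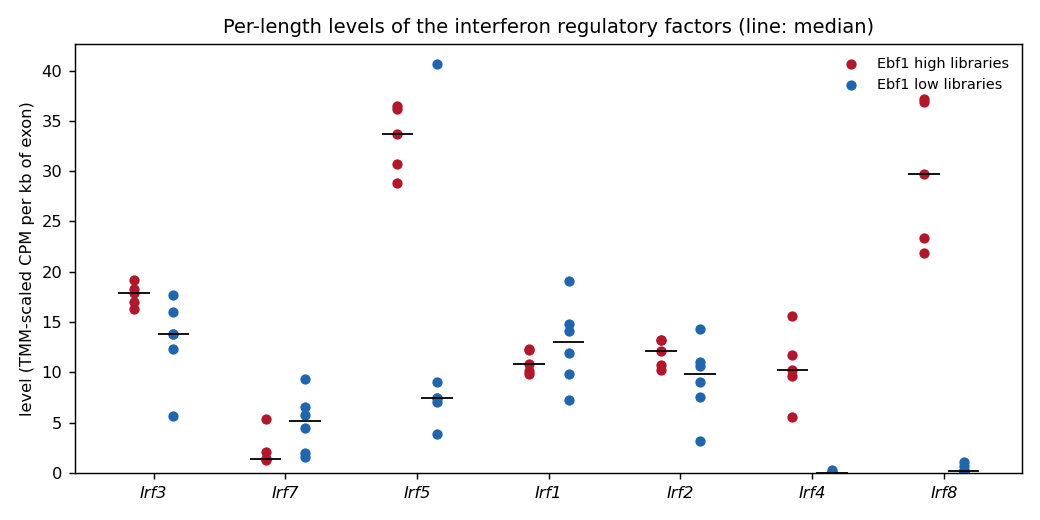
TMM-scaled CPM per kb of exon (vertical axis, linear, from 0) for each gene, with high-Ebf1 libraries left of low-Ebf1 libraries. Points are libraries and lines are medians, which for Irf8 are 29.7 and 0.221 CPM per kb, and the point at 40.7 is Irf5 in Ifnar1 -/- library 2.

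By genotype, AML of Ifnar1 -/- mice was set against AML of Ifnar1 +/- mice, which keep 1 functional copy of the receptor gene. None of the 7 genes passed the genotype test (edgeR's quasi-likelihood test, Benjamini-Hochberg adjusted p under 0.05), as 0% of the 14521 genes tested did. At an unadjusted p under 0.05 none of the 7 was found, against 1.99% of all genes (289). DESeq2 called 3 genes and limma voom 0, none of them an IRF. Irf7 was lowest by fold change. It averaged 9.56 ± 6.97 CPM in the 5 Ifnar1 -/- libraries and 17.9 ± 11.6 CPM in the 6 Ifnar1 +/- libraries (mean ± SD, as in all such values below). That is a log2 fold change of -0.90, with SE 0.58 and an edgeR adjusted p of 0.9998. Ranges overlapped between genotypes for all 7 genes, and 0.124% of all genes had ranges that did not. All 7 passed the filter on low counts, Irf4 only through the high-Ebf1 libraries.

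The other 6 genes had the same adjusted p. Irf1 averaged 53.8 ± 13.7 CPM in Ifnar1 -/- and 42.8 ± 9.91 CPM in Ifnar1 +/- libraries, a log2 fold change of 0.33 (SE 0.22). For Irf2 the mean was 86.5 ± 15.5 CPM in Ifnar1 -/- and 70.1 ± 26.8 CPM in Ifnar1 +/- libraries (log2 fold change 0.30, SE 0.31). Irf3 averaged 54.5 ± 9.74 CPM in Ifnar1 -/- and 50.9 ± 16.3 CPM in Ifnar1 +/- libraries (log2 fold change 0.10, SE 0.28). For Irf4, Irf5 and Irf8 each genotype held both high-Ebf1 and low-Ebf1 libraries, and their SDs were wide. Irf5 averaged 68.8 ± 49.5 CPM in Ifnar1 -/- and 59.5 ± 40.5 CPM in Ifnar1 +/- libraries (log2 fold change 0.21, SE 0.68). Irf4 averaged 20.9 ± 33.3 CPM in Ifnar1 -/- and 26.1 ± 28.2 CPM in Ifnar1 +/- libraries (log2 fold change -0.32, SE 1.90). Irf8 averaged 73.4 ± 101 CPM in Ifnar1 -/- and 117 ± 128 CPM in Ifnar1 +/- libraries (log2 fold change -0.67, SE 1.66). In all, 3 of the 7 log2 fold changes were below 0 and 4 above, with a median of 0.10, against a median of -0.015 over all genes. At an SE of 1.66 or 1.90, several-fold differences in either direction were not detectable.

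**Figure D4:**
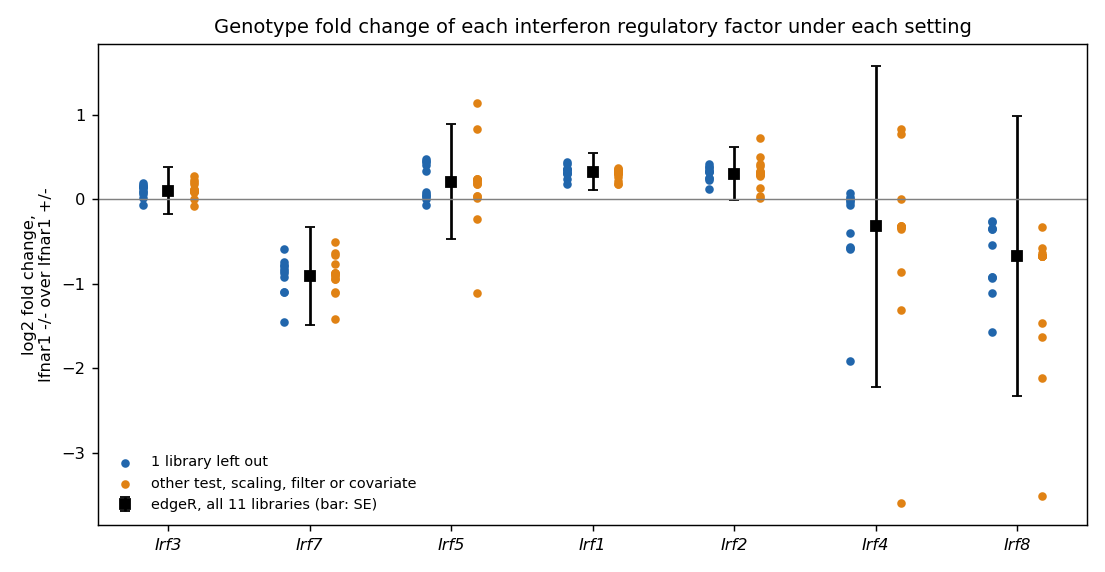
Log2 fold change of Ifnar1 -/- over Ifnar1 +/- (vertical axis) for each of the 7 genes. Black squares are the edgeR values with 1 SE, blue points leave out 1 library each, and orange points use another test, scaling, filter, covariate or set of libraries. Irf7 stays below 0 throughout, from -1.45 to -0.50, and Irf4 and Irf8 have the widest bars.

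Within the Ebf1 sets the genotype comparison rested on few libraries. In low-Ebf1 libraries Irf8 was at 1.39, 1.08 and 0.662 CPM in Ifnar1 -/- and 1.73, 4.57 and 7.36 CPM in Ifnar1 +/- libraries, and these did not overlap. The log2 fold change was -2.11 with an unadjusted edgeR p of 0.0225 and an adjusted p of 0.9993, and 3.93% of all genes lay wholly lower in Ifnar1 -/- in that comparison. The nearest libraries of the genotypes had 45 counts (Ifnar1 -/- library 1) and 43 counts (Ifnar1 +/- library 1). Monocyte and macrophage markers summed to 62.5, 3703 and 43.1 CPM in the same Ifnar1 -/- libraries and to 209, 295 and 206 CPM in the Ifnar1 +/- libraries, and their part in the Irf8 level was not tested. Irf7 had 5.80, 21.8 and 7.32 CPM in low-Ebf1 Ifnar1 -/- libraries and 16.9, 35.2 and 24.7 CPM in Ifnar1 +/- libraries, which overlapped (log2 fold change -1.11). In high-Ebf1 libraries Irf7 was at 7.97 and 4.88 CPM in Ifnar1 -/- and 20.1, 5.26 and 5.20 CPM in Ifnar1 +/- libraries.

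Irf1 was the gene that did not overlap within the high-Ebf1 libraries. It was at 48.8 and 48.7 CPM in Ifnar1 -/- and 39.1 to 42.9 CPM in Ifnar1 +/- libraries, a log2 fold change of 0.26 (edgeR adjusted p = 0.9999). In that comparison 7.45% of all genes lay wholly higher in Ifnar1 -/- libraries. With log2 Ebf1 CPM as a covariate over all 11 libraries, Irf7 had a log2 fold change of -1.09 (edgeR adjusted p = 0.9987). Ifnar1 -/- library 2 held the highest Irf7 value of its genotype, and without it the log2 fold change was -1.45 (edgeR adjusted p = 0.9999).

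The balance of Irf1 and Irf2 and that of Irf8 and Irf4 were compared inside each library, where scaling has no part apart from the 0.5 CPM added to each level. These ratios are of CPM, not per length. For Irf1 to Irf2 the log2 ratio averaged -0.70 ± 0.33 in Ifnar1 -/- and -0.60 ± 0.59 in Ifnar1 +/- libraries. The difference of -0.09 had an exact two-sided permutation p of 0.762. The ratio was below 0 in every library but Ifnar1 +/- library 6, where it was 0.28. The log2 ratio of Irf8 to Irf4 was 1.49 ± 0.58 in Ifnar1 -/- and 2.25 ± 0.82 in Ifnar1 +/- libraries, a difference of -0.76 (exact permutation p = 0.106). In low-Ebf1 libraries this ratio depends on the added 0.5 CPM, since Irf4 was under that level in 5 of the 6. Among high-Ebf1 libraries it was 2.49 and 1.45 in Ifnar1 -/- and 1.79, 2.37 and 2.17 in Ifnar1 +/- libraries, which overlapped.

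None of the genes that activate IRFs passed the genotype test. Of 19 listed adaptors and kinases 18 had a row, 17 were tested, 9 log2 fold changes were below 0 and 8 above. Their median was -0.00. Among the 3 with the smallest p, Irak4, a kinase of the MyD88 complex, averaged 46.4 ± 17.9 CPM in Ifnar1 -/- libraries, against 35.4 ± 15.1 CPM in Ifnar1 +/- libraries (log2 fold change 0.39, SE 0.33). Tank, a scaffold of TBK1, and Ikbke, a kinase that phosphorylates IRF3 and IRF7, had log2 fold changes of 0.38 (SE 0.46) and 0.44 (SE 0.58). In Ifnar1 -/- library 2 Tank had 63.9, Irak4 71.2 and Ikbke 1.44 CPM. Without that library, a comparison chosen after seeing the data, the log2 fold change of Tank was -0.34 (SE 0.28). That of Irak4 was then 0.20 (SE 0.32) and that of Ikbke 0.75 (SE 0.37). By Ebf1 level, 2 of the 17 lay wholly higher and 4 wholly lower in high-Ebf1 libraries, against 12.1% and 9.0% of all genes. Unc93b1, which carries nucleic-acid-sensing Toll-like receptors to endosomes, had 233 to 354 CPM in high-Ebf1 and 48.7 to 134 CPM in low-Ebf1 libraries. Myd88, an adaptor of most of those receptors, had 50.2 to 70.1 CPM in high-Ebf1 and 111 to 236 CPM in low-Ebf1 libraries. Unc93b1 and Myd88 were named after their values were seen.

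Among 18 partners and co-regulators of IRFs, 2 of 17 tested had ranges that did not overlap between the Ebf1 sets, both higher in high-Ebf1 libraries, a share near the 12.1% of all genes that lay wholly higher. Spib, which encodes the ETS partner Spi-B, had 170 to 332 CPM in high-Ebf1 and 0 to 3.14 CPM in low-Ebf1 libraries. Tcf3, which encodes the E2A proteins of early B cells, had 68.4 to 170 CPM in high-Ebf1 and 13.3 to 28.4 CPM in low-Ebf1 libraries. Ranges overlapped for Spi1. Spi1, which encodes PU.1, had 26.6 to 45.7 CPM in high-Ebf1 and 42.3 to 507 CPM in low-Ebf1 libraries. These 3 were named after their values were seen. Between genotypes 11 partners had log2 fold changes below 0 and 6 above, with a median of -0.15, and none passed. The smallest p belonged to Batf2, a partner of IRF1 in macrophages, at 0.467 ± 0.372 CPM in Ifnar1 -/- and 3.23 ± 5.0 CPM in Ifnar1 +/- libraries (log2 fold change -2.77, SE 1.07). Irf2bpl, a relative of the IRF2-binding corepressors, averaged 7.85 ± 3.18 CPM in Ifnar1 -/- libraries, against 12.1 ± 1.91 CPM in Ifnar1 +/- libraries (log2 fold change -0.63, SE 0.27). Batf, which binds with IRF4 in lymphocytes, had a log2 fold change of -0.60 (SE 0.30). All adjusted p-values of these lists were 0.9998.

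Genes known as targets of IRF3 and IRF7 had the lowest median of the 5 related lists. Of 12 listed, 8 were tested, and all 8 had log2 fold changes below 0, with a median of -1.66. Over all genes tested 51.7% were below 0 and the median was -0.015. The other 4 of the list, Ifnb1, Ifna4, Cxcl10 and Ifi44, were under 1 CPM in all libraries. Cxcl10 averaged 0.0526 CPM in Ifnar1 -/- and 0.224 CPM in Ifnar1 +/- libraries, and Ifi44 0.0275 and 0.0121 CPM. The filter on low counts can keep a gene through the genotype where it is higher. Of the genes tested, Ifit1, Ifit3 and Oasl1 averaged under 1 CPM in Ifnar1 -/- libraries. None passed after adjustment, and 4 of the 8 had an unadjusted edgeR p under 0.05, against 1.99% of all genes. The list was chosen with earlier results of these data known, so this contrast with all genes is a description and not a test. Without Ifnar1 -/- library 2, all 8 were again below 0, with a median of -1.56. Ifit1, an RNA-binding antiviral protein gene, averaged 0.435 ± 0.297 CPM in Ifnar1 -/- libraries, against 3.97 ± 3.11 CPM in Ifnar1 +/- libraries (log2 fold change -3.17, SE 0.83). Oasl1 averaged 0.478 ± 0.788 CPM in Ifnar1 -/- libraries, against 5.86 ± 5.66 CPM in Ifnar1 +/- libraries (log2 fold change -3.59, SE 1.14). Rsad2, which encodes viperin, averaged 2.22 ± 0.924 CPM in Ifnar1 -/- libraries, against 10.6 ± 12.4 CPM in Ifnar1 +/- libraries (log2 fold change -2.25, SE 0.93). As background, the same genes are also induced through the interferon receptor by the ISGF3 complex. The interferon genes Ifnb1 and Ifna4 were at 0 counts in each of the 11 libraries.

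Targets known for IRF1 include immunoproteasome, antigen presentation and guanylate-binding protein genes. All 16 were tested, 10 had log2 fold changes below 0 and 6 above, the median was -0.11 and none passed. In high-Ebf1 libraries 7 of the 16 lay wholly higher and 2 wholly lower, against 12.1% and 9.0% of all genes. The immunoproteasome gene Psmb8 had 441 to 579 CPM in high-Ebf1 and 153 to 369 CPM in low-Ebf1 libraries, and Cd274, which encodes PD-L1, had 3.68 to 9.64 CPM in high-Ebf1 and 25.2 to 54.1 CPM in low-Ebf1 libraries. Both were named after their values were seen. The smallest genotype p belonged to Ciita, Gbp3 and Gbp2, with log2 fold changes of 0.71 (SE 0.68), -1.39 (SE 1.43) and -0.61 (SE 0.65).

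Of 16 genes known as targets of IRF4 and IRF8, 13 were tested, with 3 log2 fold changes below 0 and 10 above and a median of 0.53. None passed. Cxcr4, a chemokine receptor gene, averaged 66.4 ± 56.5 CPM in Ifnar1 -/- libraries, against 26.7 ± 9.65 CPM in Ifnar1 +/- libraries (log2 fold change 1.32, SE 0.46). The NADPH oxidase gene Ncf1 averaged 350 ± 558 CPM in Ifnar1 -/- libraries, against 69.7 ± 72.2 CPM in Ifnar1 +/- libraries. Its log2 fold change was 2.33 (SE 1.10), and its highest value, 1341 CPM, was in Ifnar1 -/- library 2. Without that library, a comparison chosen after seeing the data, Ncf1 had a log2 fold change of 0.57 (SE 0.88) and Cxcr4, at 165 CPM in that library, 0.65 (SE 0.30). The 16 genes of the list summed to 5120 CPM in Ifnar1 -/- library 2 and to 783 to 1614 CPM in each of the others. That is the library with 38029 CPM of neutrophil and 3703 CPM of monocyte and macrophage markers, whose part in these values was not tested. Fitted without it, 14 genes of the list were tested, 7 were below 0 and 7 above, and the median was -0.01. In high-Ebf1 libraries 1 of the 13 lay wholly higher, Blnk, a B-cell receptor adaptor gene with 118 to 368 CPM in high-Ebf1 and 0 to 3.84 CPM in low-Ebf1 libraries, and 2 lay wholly lower, against 12.1% and 9.0% of all genes. Blnk was named after its values were seen.

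**Figure D5:**
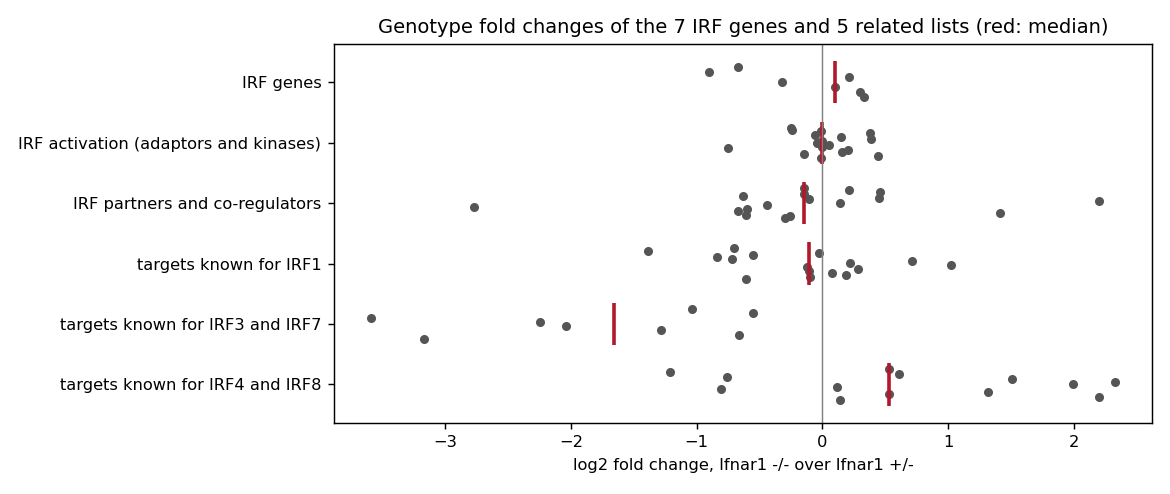
Log2 fold change of Ifnar1 -/- over Ifnar1 +/- (horizontal axis) for the 7 IRF genes and the tested genes of 5 related lists (rows), 1 point a gene, with the median of each row in red. The row of IRF3 and IRF7 targets lies wholly below 0 with a median of -1.66, and the IRF genes centre on 0.10.

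Genes most alike to each member were ranked by Spearman correlation of CPM over the 11 libraries, among 9573 genes with a mean of at least 5 CPM. The libraries share depth and lineage make-up across genes, so these values describe the libraries and carry no test. Irf8 was closest to Ncapg, a condensin subunit gene (0.991), Tnfrsf13c, which encodes the BAFF receptor (0.982), and Alpl (0.973). Tnfrsf13c had 78 to 308 CPM in high-Ebf1 and 0.184 to 10.2 CPM in low-Ebf1 libraries. Irf4 was closest to Tra2a (0.973), Mrpl48 (0.973) and Ttc32 (0.964), and Irf5 to Tmem50b (0.982), Ccdc125 (0.955) and Sik1 (0.955). For Irf1 the closest was Nfkbid, which encodes a nuclear regulator of NF-kB (0.982), then Dbnl (0.927) and Fkbp8 (0.918). Irf2 was nearest to Bckdhb (0.964), Rnf169 (0.945) and Itpr1 (0.936), and Irf3 to Pih1d1 (0.945), Cdan1 (0.945) and Ucp2 (0.918). For Irf7 they were Zdhhc3 (0.945), Nptn (0.909) and Ankrd54 (0.909).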

How the data were processed

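Gene-level estimated counts were deposited by the authors for 11 bulk RNA-seq libraries, unscaled and with decimals. Per the labels' protocols, RNA came from a Qiagen micro column kit and libraries from a Clontech kit. Tools named in the submitters' processing notes are bcl2fastq and DRAGEN, without roles or versions. Build, annotation and strand setting were not stated in the sources used here. The deposited table held 55774 rows, and 287 copies of repeated identifiers were dropped. Per library 10.0% to 11.3% of values had decimals. At most 0.0219% of counts lay in rows with no symbol.

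Estimated counts were rounded. Under R 4.3.3, edgeR 4.0.16 ran filterByExpr, TMM scaling, glmQLFit (robust=TRUE) and a two-sided glmQLFTest, and p-values were adjusted by Benjamini-Hochberg over all 14521 genes, threshold 0.05. SE is |log2 fold change| over the root of F. Libraries were split at the widest gap in log2 Ebf1 CPM. Ratios used exact permutation tests, whose smallest p is 0.00216 with 5 and 6 libraries. The members and lists were chosen with earlier results of these data known. Named genes are the members, the 3 genes most alike to each, and up to 3 genes of each list with the smallest genotype p, of which 1 is not reported here. The adaptor gene Tasl was not matched and is not analysed here. A comparison of protein sequences between members was planned and not run. Alternatives were DESeq2 1.42.0, limma 3.58.1 voom, permutation tests, other size factors, filters and pseudocounts, robust=FALSE, thinning, leaving out libraries, a replicate block, an Ebf1 covariate and the Ebf1 sets alone.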

Additional observations from a re-analysis of the deposited data

Results flagged for a closer look

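Irf7 in Ifnar1 -/- library 2, at 21.8 CPM, stood apart from the other 4 libraries of its genotype, which had 4.88 to 7.97 CPM. The gap to the nearest was 0.818 of the whole range, above Dixon's critical value of 0.71 for 5 libraries. Without TMM scaling, a check chosen after seeing the data, the value was 14.9 CPM and the gap 0.689 of the range, below that critical value. That library also had the highest granulocyte and monocyte marker sums, whose part in the value was not tested. Irf3 in Ifnar1 +/- library 6, at 19.4 CPM, stood apart from the other 5 of its genotype, with a gap of 0.641 of the range against a critical value of 0.625 for 6 libraries. Without TMM scaling that gap was 0.625 of the range, at the critical value. That library had 86806 CPM of erythroid markers, and their part was not tested. Of 18 groups of values checked, 2 had such a library, and chance flags about 1 in 20.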

How the results depend on the processing

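None of the 7 genes passed under any alternative, and the smallest adjusted p was 0.5085, for Irf8 in limma voom. Irf1, Irf2, Irf7 and Irf8 kept their direction under all 25 alternatives. The sign turned for Irf3 in voom (-0.002), for Irf4 with the Ebf1 covariate (0.832, and 0.777 also without Ifnar1 -/- library 2, an alternative chosen after seeing the data) and in the high-Ebf1 libraries alone (0.004), and for Irf5 in voom (-1.11). In voom Irf4 was at -3.593 and Irf8 at -3.515, and the cause was not tested. Leaving out each library gave 0.18 (without Ifnar1 -/- library 2) to 0.44 for Irf1, 0.13 (without Ifnar1 +/- library 6) to 0.42 for Irf2, -0.066 to 0.191 for Irf3, -1.91 to 0.075 for Irf4, -0.063 to 0.481 for Irf5, and -1.45 to -0.59 for Irf7. The low Irf4 value was without Ifnar1 -/- library 5, the low Irf5 value without Ifnar1 -/- library 2. For Irf8 it was -1.57 without Ifnar1 -/- library 5 and -0.26 without Ifnar1 +/- library 4. The same step gave -0.234 to 0.084 for the Irf1 to Irf2 ratio and -1.014 to -0.455 for the Irf8 to Irf4 ratio, whose exact permutation p was 0.0238 without Ifnar1 -/- library 3, 0.184 at a pseudocount of 2 and 0.4 at 0.1. DESeq2 called 3 genes where edgeR called 0. Between the Ebf1 sets, 2 genes did not overlap, against 4 without TMM scaling, 3 without Ifnar1 -/- library 2 and 2 without Ifnar1 +/- library 6. Irf4 could not be fitted in the low-Ebf1 libraries alone.

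Between libraries of equal replicate number, deviations from the group means correlated at 0.496, 0.299, 0.656, -0.6 and 0.661. Of the 5 Ifnar1 -/- libraries, 1 correlated best with its own number. The negative value was that of number 4, a low-Ebf1 Ifnar1 -/- and a high-Ebf1 Ifnar1 +/- library. Libraries of each other number shared an Ebf1 level. Since the sign followed Ebf1 level, these values do not decide whether equal numbers pair the libraries. With the number as a block 0 genes passed, and the log2 fold changes were 0.22 for Irf1, 0.133 for Irf2, -0.077 for Irf3, -1.31 for Irf4, -0.233 for Irf5, -0.638 for Irf7, -1.464 for Irf8 and 0.084 for the Irf1 to Irf2 ratio.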
